A study of Mus musculus with 6 samples.

Results

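The hearts of this study carry animal numbers that fall into a 32xx series and a 27xx series, and the comparison described here sets these series against each other with *Col1a2* genotype held in the model. The members were chosen by the number at the start of each sample label, which put 3 hearts in each series and used all 6 hearts of the data set. The 32xx series held *Col1a2-/-* heart 3200 and *Col1a2+/-* hearts 3201 and 3294, and the 27xx series held *Col1a2-/-* hearts 2767 and 2770 and *Col1a2+/-* heart 2769. All mice were 2 months of age and on a C57/BL6 background, with no treatment given in the labels, and the *Col1a2-/-* mice were homozygous for a germline knockout-first allele from a single line, of which the *Col1a2+/-* mice, used as the controls, carried a single copy. No wild-type heart was measured. The labels describe flash-frozen whole hearts, the methods describe whole ventricles, and total RNA of each heart was run on 1 Affymetrix Clariom S Mouse array, a chip that gives a log2 signal for each probe set. The labels do not say whether the number series mark litters, harvests or array runs, so these cannot be told apart. They give no sex and no time of day, and the methods state that both sexes were used.

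Several of the gene lists described below belong to hormone-responsive and circadian programs. Glucocorticoids, the adrenal steroids, bind a receptor that enters the nucleus and raises the transcription of target genes such as *Fkbp5*, *Tsc22d3* and *Per1*, and their release follows a daily rhythm. The circadian clock is a feedback loop in which BMAL1 and CLOCK activate the *Per*, *Cry* and *Nr1d* genes and the PAR bZIP genes *Dbp*, *Tef* and *Hlf*, whose products in turn repress BMAL1 and CLOCK or drive output genes. In the mouse heart these genes cycle over the day, the *Per* genes of the PER arm peaking around dusk and *Arntl*, which encodes BMAL1, around dawn. FoxO factors, active when insulin signalling is low, share part of the glucocorticoid target genes in muscle.

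The array tested 22206 probe sets after 6640 controls were left out. A probe set or gene is said to have passed below where its unadjusted p for the series in limma was under 0.05. By this measure 693 probe sets (3.12% of those tested) were higher in 32xx hearts and 713 (3.21%) were lower. These 1406 probe sets were 6.33% of all, where the threshold by itself passes 5%. No probe set passed an adjusted p under 0.05, the lowest adjusted p being 0.0578. With 1 probe set per gene, 3.10% of 19505 genes were higher and 3.14% lower. Counts of gene list members below are to be read beside these shares. Among the 11486 genes with a mean above a limit for dim signals, a log2 signal of 5.97, 3.10% were higher and 2.42% lower. In 13.2% of these genes every 32xx heart lay above every 27xx heart of its own genotype, and in 12.8% every one lay below. The series can be arranged within the genotypes in 9 ways. Each of these outcomes is 1 of the 9, a share of 0.111 where the series makes no difference. The genotype term of the same fit passed 534 probe sets as higher and 608 as lower in *Col1a2-/-* hearts by the same threshold, and *Col1a2* alone passed after adjustment.

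Across the 6 arrays the median log2 signal ran from 6.64 to 6.67, and any pair of arrays correlated with r of 0.988 to 0.992 over probe sets. *Col1a2* followed the genotype labels, at 6.48, 6.86 and 6.84 on the log2 scale in *Col1a2-/-* hearts 3200, 2767 and 2770, against 9.06, 9.18 and 9.47 in *Col1a2+/-* hearts 3201, 3294 and 2769. Its series difference, 32xx minus 27xx, was −0.36 on the log2 scale (SE 0.17, unadjusted p = 0.061 from limma). The cardiomyocyte genes *Myh6*, with log2 signals between 18.66 and 18.82, and *Tnnt2*, between 18.80 and 18.99, were high in every heart, and none of 14 cardiomyocyte markers passed in either direction. *Col1a2+/-* heart 3294 stood apart from the other 5. *Uty*, on the Y chromosome, was at 2.65 in this heart, against 11.58 to 11.90 elsewhere, the atrial growth factor gene *Bmp10* had 13.89 against 3.53 to 5.35, and *Ucp1* of brown fat had 8.33 against 3.60 to 4.30. The first principal component, with 27.7% of the variance, placed it at 47.3 and the other hearts between −17.1 and −1.2. The largest differences and the main gene lists are therefore given with and without heart 3294. It was the only heart with *Uty* this low, so the 32xx series alone held such a heart. The part of sex in the series differences was not tested.

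*Ddit4* showed the largest difference among genes above the dim limit. *Bmp10*, with a mean under that limit, had 3.56 (SE 2.19, unadjusted p = 0.143 from limma) through heart 3294, and 1.21 without it. *Ddit4* encodes REDD1, a stress- and glucocorticoid-induced inhibitor of mTORC1 signalling. Its log2 signals were 11.24, 11.22 and 11.57 in 32xx hearts 3200, 3201 and 3294, against 7.85, 8.78 and 8.55 in 27xx hearts 2767, 2770 and 2769, the order of hearts kept in all lists of signals below. The series did not overlap and the gap between them exceeded the range within either. The difference was 2.89 (SE 0.27), a 7.40-fold higher signal in 32xx hearts, with an adjusted p of 0.0578 from limma. It was 2.92 between *Col1a2-/-* hearts, 2.85 between *Col1a2+/-* hearts and 2.82 without heart 3294.

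*Zfp36*, which encodes tristetraprolin, a protein that speeds the decay of mRNAs with AU-rich elements, had the same adjusted p of 0.0578. Its signals were 10.15, 10.62 and 11.23 in 32xx hearts, against 7.80, 8.08 and 8.35 in 27xx hearts, and the difference was 2.39 (SE 0.23) with all hearts and 2.24 without heart 3294. The series were again fully apart. *Zfp36* also differed with genotype, by −0.60 in *Col1a2-/-* relative to *Col1a2+/-* hearts at an unadjusted p of 0.030 from limma.

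The 12 largest positive differences among genes above the dim limit, taken only where the genotype term was small, lay between 1.51 and 2.89. *Arrdc2*, of the arrestin-domain family, had signals of 8.73, 8.77 and 9.50 in 32xx hearts, against 7.14, 7.03 and 6.30 in 27xx hearts (difference 2.24, SE 0.31). *Depp1*, a FoxO-induced gene, had 12.10, 12.34 and 12.51 in 32xx hearts, against 9.47, 10.43 and 10.36 in 27xx hearts (difference 2.11, SE 0.27). *Cebpd*, which encodes a transcription factor of the acute stress response, had 10.95, 10.92 and 11.37 in 32xx hearts, against 8.50, 9.44 and 9.43 in 27xx hearts (difference 1.85, SE 0.28). In each of the 3 genes the lowest 32xx heart was over 1 log2 unit above the highest 27xx heart.

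*Nfkbia*, which encodes the NF-κB inhibitor IκBα, had signals of 11.91, 11.81 and 11.99 in 32xx hearts, against 9.93, 10.27 and 10.39 in 27xx hearts, and its difference of 1.66 (SE 0.19) had the smallest standard error of the 12. *Tsc22d3*, which encodes the glucocorticoid-induced leucine zipper GILZ, had 13.45, 13.13 and 13.97 in 32xx hearts, against 11.55, 12.38 and 11.90 in 27xx hearts (difference 1.56, SE 0.30). *Slc10a6*, a carrier of sulfated steroids, had 6.88, 6.58 and 6.98 in 32xx hearts, against 5.68, 5.33 and 4.96 in 27xx hearts (difference 1.60, SE 0.21). All 3 were separated between the series, and *Slc10a6* was under the dim limit in every 27xx heart.

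*Fam107a*, an actin-associated gene, had the widest spread of the 12, with signals of 9.97, 10.05 and 11.05 in 32xx hearts, against 7.49, 9.19 and 8.58 in 27xx hearts (difference 1.80, SE 0.46). The others were *Rgcc*, a cell cycle regulator (difference 1.59), *Bcl2l1*, which encodes the survival protein BCL-xL (1.55), *Cdkn1a*, which encodes the cell cycle inhibitor p21 (1.53), and *Fam117b* (1.51). Their 32xx hearts also all lay above their 27xx hearts. Adjusted p-values of these 12 genes, *Ddit4* aside, lay between 0.167 and 0.659 in limma.

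The 12 largest negative differences were smaller, between −2.10 and −0.98. *Tfrc*, which encodes the transferrin receptor that brings iron into cells, had signals of 11.77, 12.22 and 10.64 in 32xx hearts, against 14.03, 13.34 and 13.72 in 27xx hearts. The series did not overlap, heart 3294 was the lowest, and the difference was −2.10 (SE 0.41, adjusted p = 0.380 from limma). *Nr1d1*, which encodes the clock repressor REV-ERBα, had 11.51, 12.01 and 11.81 in 32xx hearts, against 13.52, 13.04 and 13.27 in 27xx hearts, all 32xx hearts being lower (difference −1.57, SE 0.21, adjusted p = 0.208 from limma). *Slc41a3*, a magnesium transporter gene, had 10.61, 10.63 and 10.62 in 32xx hearts, against 12.13, 11.58 and 11.95 in 27xx hearts (difference −1.29, SE 0.20), with the 32xx hearts almost equal.

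*Klhdc8a* had signals of 9.81, 9.41 and 8.95 in 32xx hearts, against 10.90, 10.82 and 10.59 in 27xx hearts (difference −1.23, SE 0.20). *Fscn1*, which encodes the actin-bundling protein fascin, had 8.63, 8.80 and 8.23 in 32xx hearts, against 9.89, 9.81 and 9.57 in 27xx hearts (difference −1.14, SE 0.21). *Rrad*, a small GTPase gene whose product restrains the L-type calcium channel of heart muscle, had 11.58, 11.45 and 11.53 in 32xx hearts, against 12.54, 12.35 and 12.60 in 27xx hearts (difference −0.99, SE 0.17). In all 3 genes the 32xx hearts lay below every 27xx heart. The rest were *Rassf9* (−1.13), *Plk2*, a polo-like kinase gene (−1.08), *Cldn5*, of endothelial tight junctions (−1.07), the growth factor gene *Fgf18* (−1.04), the neural gene *Slitrk6* (−1.01) and *Tet1*, which encodes a dioxygenase of methylated cytosine (−0.98).

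**Figure D1:**
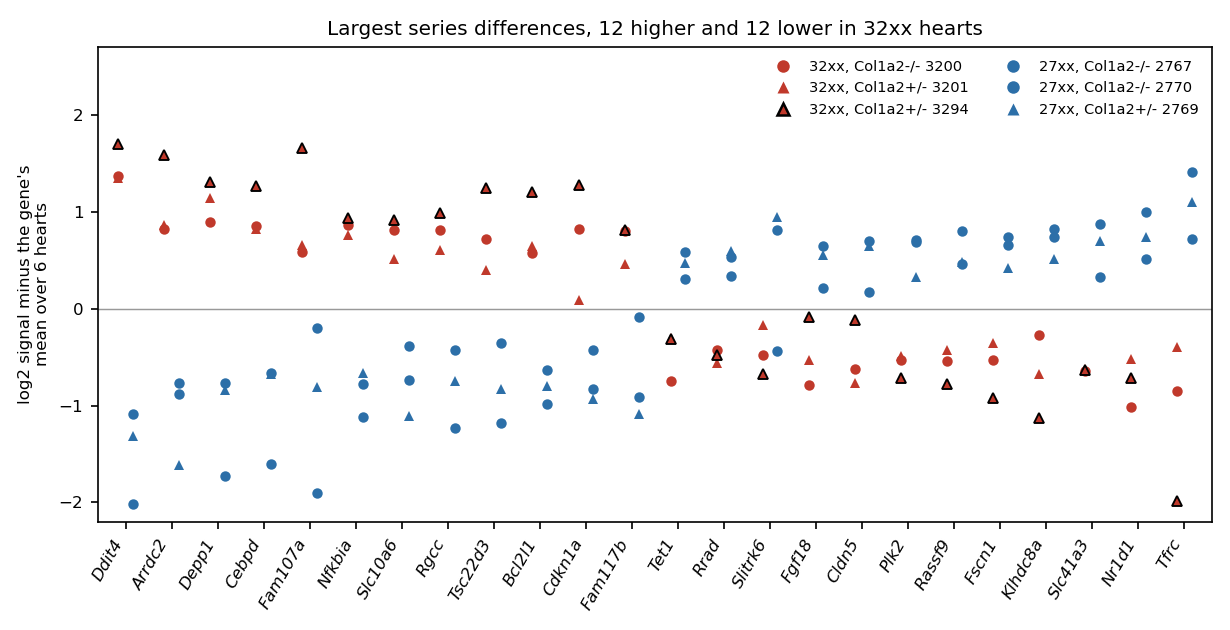
Log2 signal of each heart minus the gene's mean over the 6 hearts (y axis, log2 units) for the 12 largest positive and 12 largest negative series differences (x axis). Red, left of each tick, are 32xx hearts and blue, right of it, 27xx hearts; circles are *Col1a2-/-* and triangles *Col1a2+/-*, and heart 3294 has a black rim. Among the 24 genes, the points of the series overlap only in *Slitrk6*, and in *Tfrc* heart 3294 is the lowest of the 6.

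Without heart 3294, no difference among the 24 genes turned its sign or lost 50% of its size. In limma, 23 of the 24 kept an unadjusted p under 0.05 whichever heart was left out, and *Slitrk6* did so in 4 of 6 fits, with a p of 0.0601 without heart 3294 and 0.224 without heart 2769. The 24 genes were chosen on these p-values and on the separation of the series, so the counts describe them and test nothing. An exact permutation of the series within the genotypes, two-sided, has 9 arrangements and cannot give a p under 0.111, and the choice of genes fixed its outcome almost entirely. Of all 105 genes that passed among those the naming rule took, 33 passed whichever heart was left out, and the fewest passed without heart 2769 (53) or heart 3200 (54), each the only heart of its genotype in its series. 

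The glucocorticoid-induced list held the largest share of genes higher in 32xx hearts. Of its 19 measured genes, 12 passed as higher and 0 as lower, beside 3.10% and 3.14% of all genes, and the median difference of the list was 1.13, beside −0.0011 over genes above the dim limit. Besides *Ddit4*, *Nfkbia*, *Cebpd*, *Tsc22d3* and *Cdkn1a*, these were *Mt2*, *Errfi1*, *Fkbp5*, *Tat*, *Per1*, *Sgk1* and *Mt1*. The list was chosen with results of these hearts known, so its count is not independent of them. Without heart 3294 the median was 0.83 and 11 genes were higher, and over the fits that left out 1 heart 9 to 13 were.

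*Mt2*, a metallothionein gene that buffers zinc, had signals of 15.94, 14.80 and 15.11 in 32xx hearts, against 14.29, 14.14 and 13.66 in 27xx hearts, with no overlap (difference 1.51, SE 0.19, adjusted p = 0.208 from limma). It also differed with genotype, by 0.77. *Errfi1*, which encodes an inhibitor of EGF receptor signalling, had 11.57, 11.74 and 12.29 in 32xx hearts, against 10.43, 10.61 and 10.41 in 27xx hearts (difference 1.33, SE 0.23). *Fkbp5*, which encodes a co-chaperone of the glucocorticoid receptor, had 13.46, 13.32 and 14.08 in 32xx hearts, against 12.38, 13.14 and 12.08 in 27xx hearts (difference 1.16, SE 0.33). In *Fkbp5* heart 2770, at 13.14, came close to heart 3201, at 13.32.

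*Sgk1*, which encodes a kinase regulated by corticosteroids, had a difference of 0.70 (SE 0.20) and the metallothionein gene *Mt1* of 0.53 (SE 0.20). The liver enzyme gene *Tat* (1.13, SE 0.32) had a mean under the dim limit. Members that did not pass included *Klf9* (difference 0.36, SE 0.17), *Zbtb16* (0.40, SE 0.21), *Klf15* (0.59, SE 0.34) and the fasting-induced genes *Pdk4* (0.16) and *Angptl4* (−0.01). *Pdk4*, the kinase gene that turns glucose oxidation down, had signals of 15.19, 14.64 and 13.92 in 32xx hearts, against 14.63, 14.16 and 14.76 in 27xx hearts, so that the series overlapped. Of the 19 genes, 11 stood in none of the clock, FoxO, immediate-early and fatty acid oxidation lists, and 8 of these 11 were among the 12.

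**Figure D2:**
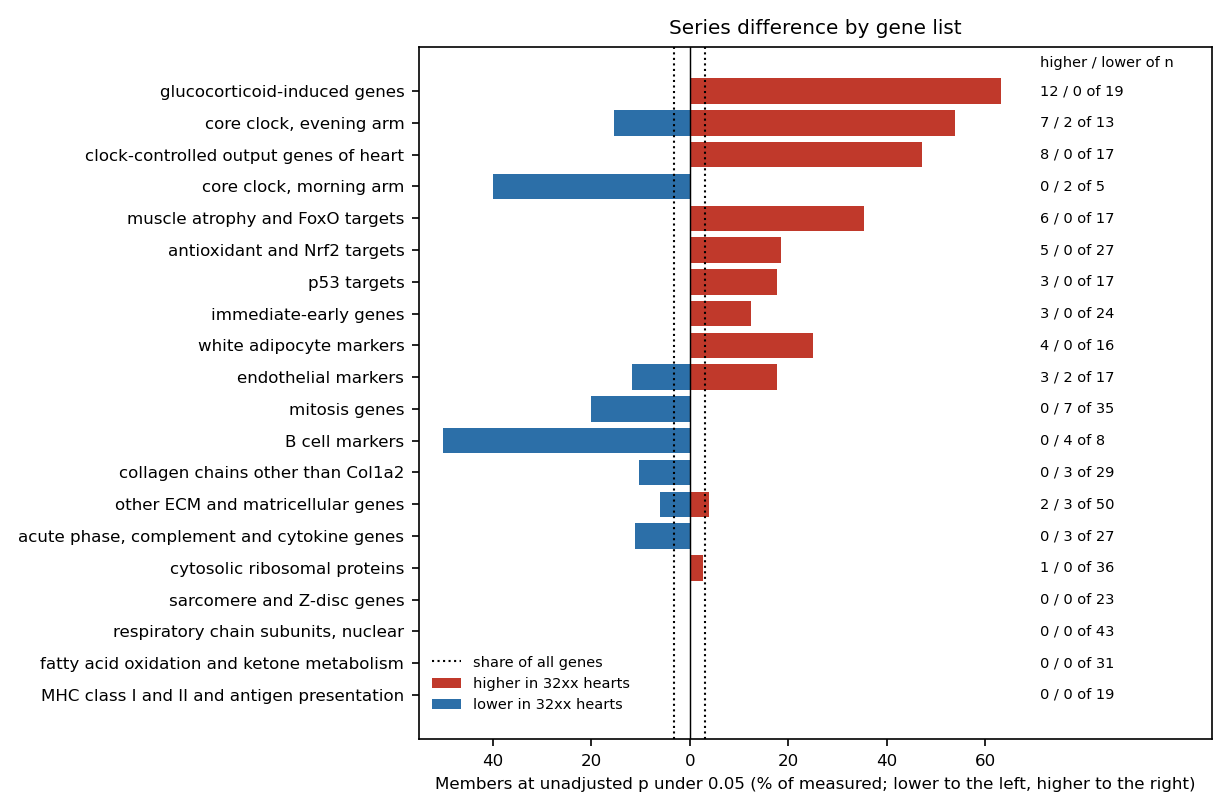
Share of the measured members of 20 gene lists that passed as higher (red, to the right) or lower (blue, to the left) in 32xx relative to 27xx hearts, in percent (x axis; unadjusted p under 0.05, limma). Numbers at the right give the counts, and the dotted lines the shares of all genes, 3.10% higher and 3.14% lower; glucocorticoid-induced genes reach 12 of 19, and the sarcomere, respiratory chain, fatty acid oxidation and MHC lists stand at 0.

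Genes of the muscle atrophy and FoxO list were higher in 6 of 17 members and lower in none, with a median of 0.52, and 2 of the 6, *Ddit4* and *Cdkn1a*, also belong to the glucocorticoid list. *Fbxo32*, which encodes the ubiquitin ligase atrogin-1, had signals of 12.54, 12.51 and 12.77 in 32xx hearts, against 11.47, 12.09 and 11.88 in 27xx hearts (difference 0.76, SE 0.22). *Pik3ip1*, an inhibitor of PI3K, had 12.29, 12.49 and 13.07 in 32xx hearts, against 11.86, 11.78 and 11.76 in 27xx hearts (difference 0.74, SE 0.23). Both were separated between the series. Without heart 3294 the list's median was 0.30 and 5 members were higher, without heart 2769 3 were, and without heart 3200 1 passed as lower.

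**Figure D3:**
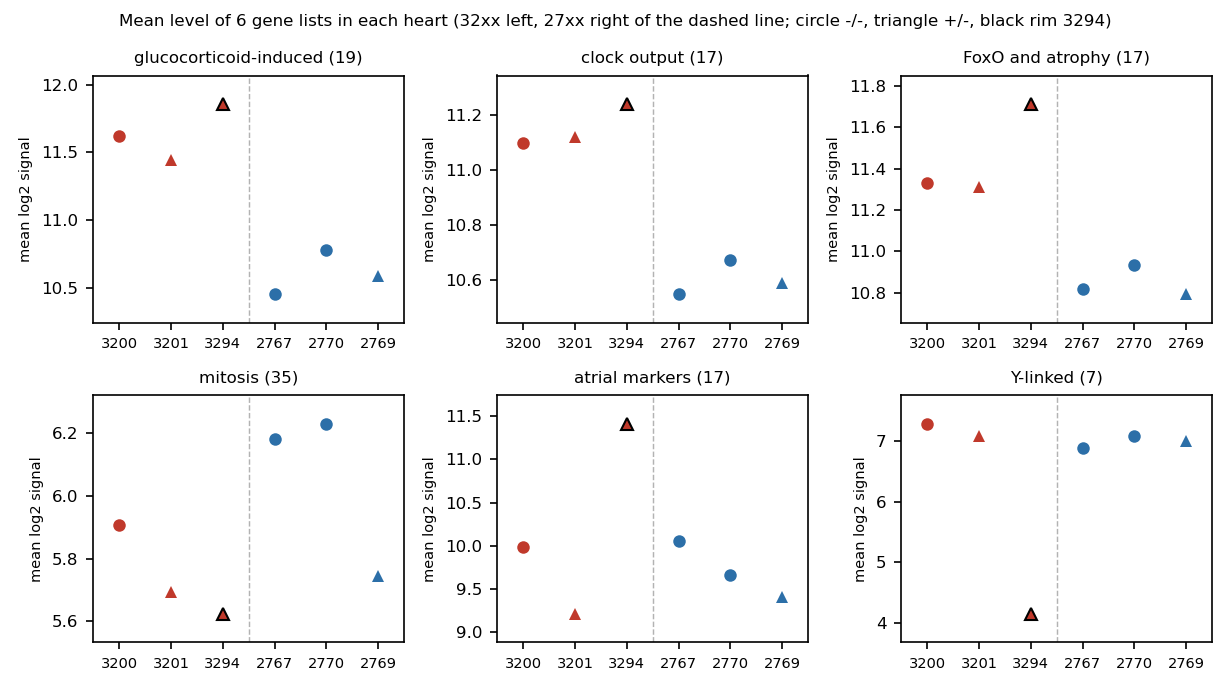
Mean log2 signal (y axis) over the measured members of 6 gene lists in each heart, named by animal number (x axis), 32xx hearts left and 27xx hearts right of the dashed line; circles are *Col1a2-/-* and triangles *Col1a2+/-*, and heart 3294 has a black rim. Glucocorticoid-induced, clock output and FoxO genes separate the series, with means of 11.45 to 11.86 in 32xx and 10.45 to 10.78 in 27xx hearts for the first, while the atrial and Y-linked means set heart 3294 apart from the other 5. Mitosis means overlap between the series, and every *Col1a2-/-* heart lies above every *Col1a2+/-* heart.

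The PER arm of the core clock was mostly higher in 32xx hearts. Of 13 measured genes, 7 passed as higher and 2 as lower, and the median difference was 0.51. The 7 were *Per1*, *Per2*, *Per3*, *Tef*, *Hlf*, *Ciart* and *Cry1*, and the 2 were *Nr1d1* and *Bhlhe40*. Leaving out 1 heart gave between 2 and 7 higher genes, the 2 without *Col1a2+/-* heart 2769, 4 each without hearts 3200, 3201 or 2767 and 6 without heart 3294.

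*Per1*, a repressor gene that also responds to glucocorticoids, had signals of 9.99, 9.84 and 10.61 in 32xx hearts, against 8.33, 9.33 and 8.69 in 27xx hearts (difference 1.35, SE 0.32). *Per2* had 9.62, 9.69 and 9.78 in 32xx hearts, against 7.65, 9.14 and 8.36 in 27xx hearts (difference 1.30, SE 0.36). *Tef*, a PAR bZIP activator gene, had 7.01, 7.32 and 7.67 in 32xx hearts, against 6.33, 6.44 and 6.39 in 27xx hearts (difference 0.86, SE 0.20). In *Per2* the 32xx hearts were close together and the 27xx hearts spread widely. *Per3* (0.67), *Ciart* (0.60), *Hlf* (0.53) and *Cry1* (0.51) differed less, and of these only *Hlf* overlapped, heart 3200 being slightly lower than heart 2769. *Hlf* also differed with genotype, by −0.57 in *Col1a2-/-* relative to *Col1a2+/-* hearts.

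*Bhlhe40*, which encodes the clock repressor DEC1, ran with *Nr1d1* and against the *Per* genes. Its signals were 12.17, 12.53 and 12.77 in 32xx hearts, against 13.27, 13.40 and 13.38 in 27xx hearts (difference −0.94, SE 0.19). *Dbp*, among the strongest cycling genes of mouse tissues, had 17.35, 17.54 and 17.37 in 32xx hearts, against 16.96, 17.09 and 17.21 in 27xx hearts, a difference of 0.28 with an unadjusted p of 0.13 from limma. *Nr1d2*, the paralog of *Nr1d1*, had 13.63, 13.77 and 13.72 in 32xx hearts, against 13.65, 13.58 and 13.66 in 27xx hearts (difference 0.05, SE 0.16). The series overlapped in *Nr1d2*, while in *Nr1d1* they were apart. *Cry2* (0.21) and *Bhlhe41* (0.03) did not pass.

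In the BMAL1 arm, 0 of 5 measured genes were higher and 2 lower, with a median of −0.34. *Arntl* had signals of 6.15, 5.93 and 6.58 in 32xx hearts, against 7.78, 6.61 and 6.97 in 27xx hearts (difference −0.88, SE 0.34, unadjusted p = 0.030 from limma). *Clock*, the gene of its partner, had 13.48, 13.45 and 12.86 in 32xx hearts, against 13.73, 13.80 and 14.03 in 27xx hearts (difference −0.58, SE 0.23). All 32xx hearts were lower in both, heart 2770 coming close to heart 3294 in *Arntl*, and *Clock* had a p of 0.061 without heart 3294. The number lower was 1 without heart 3200, 3201, 3294 or 2770 and 0 without heart 2769, and without heart 3201 1 gene passed as higher. *Npas2* (−0.34), *Nfil3* (0.39) and *Rora* (0.22) did not pass.

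**Figure D4:**
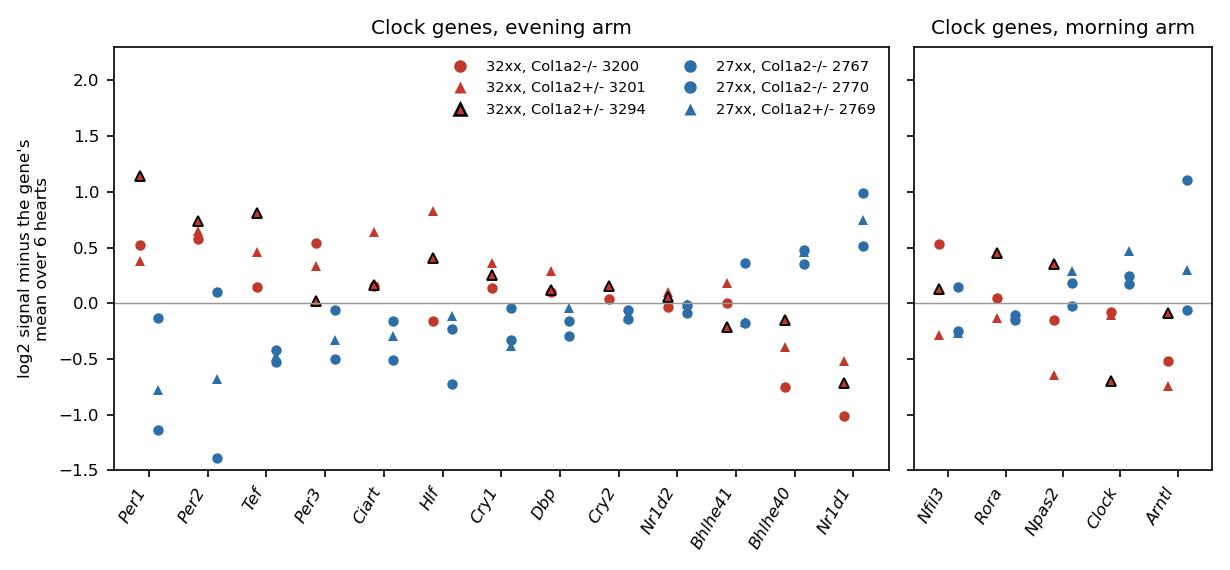
Log2 signal of each heart minus the gene's mean over the 6 hearts (y axis, log2 units) for 13 genes of the evening, or PER, arm and 5 of the morning, or BMAL1, arm of the clock (x axis), ordered by their series difference. Red, left of each tick, are 32xx hearts and blue, right of it, 27xx hearts; circles are *Col1a2-/-*, triangles *Col1a2+/-* and the black rim heart 3294. *Per1*, *Per2* and *Tef* are higher and *Nr1d1*, *Bhlhe40*, *Clock* and *Arntl* lower in every 32xx heart.

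Clock-controlled output genes of the heart were higher in 8 of 17 members and lower in none, with a median of 0.40, in 7 without heart 3294 and in 4 without heart 2769. *Wee1*, a mitotic kinase gene driven by the clock, had signals of 12.17, 12.38 and 12.39 in 32xx hearts, against 10.76, 11.31 and 10.81 in 27xx hearts (difference 1.36, SE 0.22). *Fmo2*, a flavin monooxygenase gene, had 12.17, 12.16 and 11.78 in 32xx hearts, against 10.88, 11.14 and 10.84 in 27xx hearts (difference 1.14, SE 0.19). *Nampt*, which encodes the rate-limiting enzyme of NAD salvage, had 13.59, 13.75 and 13.48 in 32xx hearts, against 13.06, 12.98 and 12.81 in 27xx hearts (difference 0.69, SE 0.18). The series were apart in all 3, and *Herpud1* (0.87), *Tspan4* (0.49) and *Usp2* (0.40) made up the count with *Tsc22d3* and *Per1*. These last 2 also belong to the glucocorticoid list, which shares 5 members with this list, and *Per1* is counted in the PER arm as well.

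The BMAL1 and CLOCK pair binds the E-box CACGTG, and the glucocorticoid receptor binds a palindrome whose arms, GNACA and TGTNC, lie 3 bases apart, where N is any base. Promoters from RefSeq (GRCm38.p6), 250 bases before to 50 after each gene start, were searched on both strands. The E-box was in the promoters of 5 of the 16 core clock genes with an entry, namely *Per1*, *Tef*, *Cry1*, *Ciart* and *Bhlhe41*, in 4 of 16 glucocorticoid-induced genes, *Fkbp5*, *Klf15*, *Per1* and *Sgk1*, in 0 of 11 of the largest positive and 2 of 10 of the largest negative differences (*Slc41a3* and *Slitrk6*), and in 8.09% of all 27025 genes with an entry. The palindrome was in 2 of 11 of the genes with the largest positive differences, *Slc10a6* and *Fam107a*, in 2 of 16 of the glucocorticoid list, *Sgk1* and *Mt1*, in 0 of 16 core clock genes and 0 of 10 of the largest negative differences, and in 0.536% of all genes. The motif TAGGTCA, which REV-ERB and ROR receptors bind, was in 2 of 16 core clock genes, *Arntl* and *Nfil3*, in none of the other groups and in 2.97% of all genes. The 250 bases before the start are shown for *Per1*, *Ciart*, *Slc10a6* and *Sgk1*, which had higher signals in every 32xx heart, with the E-box (*Per1*, *Ciart*), the palindrome with its spacer (*Slc10a6*) or both (*Sgk1*) in capitals. They lie at chr11:69098699-69098948 on the plus strand, chr3:95882229-95882478 on the minus strand, chr5:103629404-103629653 on the minus strand and chr10:21993640-21993889 on the plus strand, in that order.
Per1: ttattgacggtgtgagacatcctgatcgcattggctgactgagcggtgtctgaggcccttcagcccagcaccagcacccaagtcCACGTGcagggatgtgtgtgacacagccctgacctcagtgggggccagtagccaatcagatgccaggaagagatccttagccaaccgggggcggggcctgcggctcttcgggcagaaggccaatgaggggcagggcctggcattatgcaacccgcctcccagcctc
Ciart: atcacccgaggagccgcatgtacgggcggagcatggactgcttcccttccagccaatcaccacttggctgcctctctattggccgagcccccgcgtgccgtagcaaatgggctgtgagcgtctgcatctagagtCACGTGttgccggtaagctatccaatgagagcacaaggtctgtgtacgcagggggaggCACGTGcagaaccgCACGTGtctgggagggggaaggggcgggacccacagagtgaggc
Slc10a6: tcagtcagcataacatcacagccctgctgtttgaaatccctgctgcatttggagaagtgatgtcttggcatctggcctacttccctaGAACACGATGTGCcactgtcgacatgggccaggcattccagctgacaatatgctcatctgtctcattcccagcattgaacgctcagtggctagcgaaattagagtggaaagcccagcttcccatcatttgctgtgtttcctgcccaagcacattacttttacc
Sgk1: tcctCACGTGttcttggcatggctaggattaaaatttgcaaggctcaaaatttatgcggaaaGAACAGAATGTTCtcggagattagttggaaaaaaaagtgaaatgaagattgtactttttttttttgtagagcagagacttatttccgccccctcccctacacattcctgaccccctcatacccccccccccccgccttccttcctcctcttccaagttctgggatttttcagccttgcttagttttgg
The match begins 166 bases before the start in *Per1*, 116, 58 and 44 bases before it in *Ciart*, 163 in *Slc10a6*, and 246 for the E-box and 188 for the palindrome in *Sgk1*. These are matches of letters, and binding was not measured.

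Antioxidant genes controlled by Nrf2 were higher in 5 of 27 members and lower in none (median 0.16). *Aox1*, aldehyde oxidase, had signals of 11.53, 10.91 and 11.01 in 32xx hearts, against 9.90, 10.14 and 10.05 in 27xx hearts (difference 1.21, SE 0.20). The glutathione transferase genes *Gsta2* (1.03) and *Gsta3* (0.99), the epoxide hydrolase gene *Ephx1* (0.77) and *Gclm*, a subunit of the enzyme that starts glutathione synthesis (0.65), were the others. The number higher was 3 without heart 3200, and 1 gene passed as lower without heart 3294. *Sqstm1*, which encodes the autophagy adaptor p62, was the member of the autophagy and lysosome list with the smallest p, at signals of 14.44, 13.99 and 14.55 in 32xx hearts, against 13.36, 13.56 and 13.59 in 27xx hearts (difference 0.83, SE 0.21). That list had 3 of 22 members higher and a median of 0.06, with 0 higher without heart 3200, 1 without heart 2769, and 2 higher and 1 lower without heart 3294.

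Of 17 p53 target genes, 3 were higher and 0 lower, and the median of the list was −0.10, opposite in sign to its 3 passing members, but 0.08 without heart 3200. These were *Cdkn1a*, *Trp53inp1* (difference 1.00, SE 0.21) and the polymerase gene *Polk* (0.61). Of 24 immediate-early genes, 3 were higher, *Zfp36*, the endothelial flow-responsive factor gene *Klf2* and the orphan receptor gene *Nr4a1*. *Klf2* had signals of 8.45, 8.56 and 9.12 in 32xx hearts, against 7.70, 7.91 and 7.99 in 27xx hearts (difference 0.75, SE 0.21), while *Nr4a1* was high mainly in heart 3200, at 8.07 against 6.80 to 7.17 in the others. *Nr4a1* also differed with genotype, by 0.62 in *Col1a2-/-* relative to *Col1a2+/-* hearts. The immediate-early count was 5 higher and 1 lower without heart 3201, and 2 higher and 1 lower without heart 2770.

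Mitosis genes were lower in 7 of 35 members and higher in none, with a median of −0.21, but only 16 of the 35 were above the dim limit. The number lower was 3 without heart 3200 and 4 without heart 2767 or 2770. *Mki67*, the proliferation marker, had signals of 8.05, 7.37 and 7.60 in 32xx hearts, against 9.10, 8.53 and 8.30 in 27xx hearts (difference −0.79, SE 0.21, adjusted p = 0.661 from limma). It was lower within each genotype, by −0.77 in *Col1a2-/-* and −0.82 in *Col1a2+/-* hearts. *Mki67* also differed with genotype, by 0.53 in *Col1a2-/-* relative to *Col1a2+/-* hearts. The mean level of the list was 5.91, 5.69 and 5.62 in 32xx hearts, against 6.18, 6.23 and 5.75 in 27xx hearts. The series thus overlapped, and every *Col1a2-/-* heart lay above every *Col1a2+/-* heart. *Plk1*, a mitotic kinase gene, had 5.45, 5.59 and 6.06 in 32xx hearts, against 6.85, 6.98 and 6.06 in 27xx hearts (difference −0.85), and hearts 3294 and 2769 were alike. Of 29 DNA replication genes, *Fen1* (0.54) passed as higher and *Lig1* (−0.45) as lower, both with means under the dim limit. The counts were 1 higher and 0 lower without heart 3200 or 3201, 0 higher and 1 lower without heart 3294 or 2770, 2 higher and 0 lower without heart 2767 and 0 in both directions without heart 2769.

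Among markers of cell types other than cardiomyocytes, some lists passed in 1 direction only and others in both. White adipocyte markers passed only as higher (25%) and B cell markers only as lower (50%), beside 3.10% and 3.14% of all genes. In whole tissue RNA, fewer cells of a type and less RNA per cell cannot be told apart. Of 17 endothelial markers, 3 were higher and 2 lower. *Flt1*, the decoy VEGF receptor gene, had signals of 13.54, 13.42 and 13.57 in 32xx hearts, against 12.65, 13.09 and 12.91 in 27xx hearts (difference 0.63). *Kdr*, the main VEGF receptor gene, ran the other way, with 13.73, 13.79 and 13.43 in 32xx hearts, against 14.39, 14.21 and 14.23 in 27xx hearts (difference −0.59). *Ly6c1* (0.48) and *Vcam1* (0.47) were higher and *Cldn5* lower, and the median of the list was 0.06. Without heart 3200 or without heart 2769 the counts were 0 higher and 1 lower.

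White adipocyte markers were higher in 4 of 16 members and lower in none, with a median of 0.19. The 4 were *Pparg*, the master regulator gene of adipocytes (difference 0.62), the triglyceride synthesis gene *Dgat2* (0.54), the lipase gene *Lipe* (0.58) and *Plin4*, of lipid droplets (0.81), and all 4 passed without heart 3294 as well, against 2 without heart 3200 and 1 without heart 2769. *Pparg* also differed with genotype, by 0.44 in *Col1a2-/-* relative to *Col1a2+/-* hearts. *Adipoq*, the defining adipocyte hormone gene, was at 5.99, 5.24 and 7.78 in 32xx hearts, against 5.15, 5.14 and 5.47 in 27xx hearts. It was clearly above the dim limit of 5.97 in heart 3294 alone, and heart 3200 lay at that limit. The mean level of the 16 markers ran from 8.97 to 9.50 in 32xx hearts, highest in heart 3294, and from 8.75 to 8.85 in 27xx hearts. The part of adipose tissue in the other differences was not tested.

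Of 17 atrial markers, 1 was higher, *Kcna5* (0.44), and the median of 0.43 fell to 0.00 without heart 3294. The number higher was 5 without heart 3201, 2 without heart 2767 and 0 without heart 2770 or 2769, and 1 marker passed as lower without heart 3200. *Myl7*, the atrial myosin light chain gene, had signals of 10.85, 8.07 and 13.47 in 32xx hearts, against 12.08, 10.41 and 9.74 in 27xx hearts, so the series overlapped. B cell markers gave 0 higher and 4 lower of 8, with 1 lower without heart 3200 and 2 without heart 3294 or 2770, but only 1 of the 8 was above the dim limit, and *Ms4a1* and *Pax5* had signals between 3.81 and 4.78 in all hearts. Of 23 macrophage and monocyte markers, 1 was higher, the monocyte gene *Ly6c2* (0.63), and 1 lower, *Cx3cr1* (−0.91, with a mean under the dim limit). The counts were 0 higher and 3 lower without heart 3200 (median −0.13) and 2 higher and 0 lower without heart 2769 (median 0.22), against a median of 0.09 with all hearts.

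Among 29 collagen chains, *Col1a2* left aside, 0 were higher and 3 lower (10.3%, beside 3.14% of all genes), with a median of −0.10. The 3 were *Col4a1* and *Col4a2*, which encode the chains of basement membrane collagen, and *Col6a6*, and the number lower was 0 without heart 3200 or 2769 and 1 without heart 3201 or 2767. *Col4a1* had signals of 8.35, 8.17 and 8.29 in 32xx hearts, against 8.68, 9.10 and 8.72 in 27xx hearts (difference −0.52, SE 0.19). Of 50 other matrix genes, 2 were higher (4%) and 3 lower (6%), beside 3.10% and 3.14% of all genes. These counts were 4 higher and 1 lower without heart 3201 and 1 higher and 6 lower without heart 3294. They were 2 higher and 5 lower without heart 2770 and 0 higher and 2 lower without heart 2769. *Timp3*, an inhibitor of matrix proteases, had 11.68, 11.60 and 11.96 in 32xx hearts, against 10.78, 11.20 and 10.61 in 27xx hearts (difference 0.93, SE 0.22), and *Mmp14*, a membrane-bound protease gene, had 6.76, 6.44 and 6.38 in 32xx hearts, against 7.41, 7.07 and 7.17 in 27xx hearts (difference −0.62, SE 0.19). *Comp* was the second matrix gene higher (0.70), and *Loxl1* (−0.48) and *Lama4* (−0.46) were the other two lower. The fibroblast transcription factor genes *Tcf21* (−0.72, beside a genotype term of −0.66) and *Meox1* (−0.56) were the 2 of 14 resting fibroblast markers that passed. Of these, 0 passed without heart 3200 and 1 without heart 3201, 3294 or 2767. *Meox1* also stands in the activated fibroblast list, where 1 of 15 markers was higher, *Comp*, and 1 lower, *Meox1*. That list had 0 lower without heart 3200, 3201, 3294 or 2767 and 0 higher without heart 2769. The medians were −0.03 for the resting and 0.05 for the activated list.

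Contractile and metabolic genes gave almost no calls. At the shares of all genes, 3.10% higher and 3.14% lower, lists of this size also give few. None of 23 sarcomere, 43 respiratory chain, 31 fatty acid oxidation and 19 antigen presentation genes passed in either direction, apart from 1 antigen presentation gene that was higher without heart 3201. Their medians were −0.0027, 0.04, 0.06 and 0.05. Cytosolic ribosomal protein genes gave 1 of 36, *Rps9* (0.42), and 0 when any heart but 3201 was left out. Of 22 fetal and hypertrophic heart genes, 1 was higher, *Cdkn1a*, and 1 lower, against 2 higher and 1 lower without heart 3294 and 2 higher and 0 lower without heart 2770 or 2769. The lower one was *Nppb*, which encodes a natriuretic peptide, with signals of 13.23, 12.64 and 11.51 in 32xx hearts, against 13.72, 13.99 and 13.18 in 27xx hearts (difference −0.86, SE 0.31). *Nppb* also differed with genotype, by 0.91 in *Col1a2-/-* relative to *Col1a2+/-* hearts.

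The hearts of the 2 genotypes share no array, so the series difference can be read in each apart, with 1 *Col1a2-/-* heart against 2 and 2 *Col1a2+/-* hearts against 1. Of the 50 genes most raised in 32xx *Col1a2-/-* heart 3200 over hearts 2767 and 2770, 44 were also higher in *Col1a2+/-* hearts 3201 and 3294 than in 2769, with a median there of 0.97, where 50.2% of all genes above the dim limit were. Of the 50 most raised between *Col1a2+/-* hearts, 46 were higher between *Col1a2-/-* hearts, with a median of 0.83. Among the genes most lowered, fewer ran the same way. This held for 33 of 50 (median −0.27) when chosen in *Col1a2-/-* hearts and 37 of 50 (median −0.33) when chosen in *Col1a2+/-* hearts. Genes are not independent replicates, and each genotype had a single heart in 1 series, 3200 or 2769. The counts therefore describe these hearts and test nothing. Across all 11486 genes, which are not independent replicates, Pearson's r between the differences was 0.23 and Spearman's rho 0.16. An interaction of series and genotype passed for 0 probe sets after adjustment and for 835 (3.76%) before it, by limma.

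**Figure D5:**
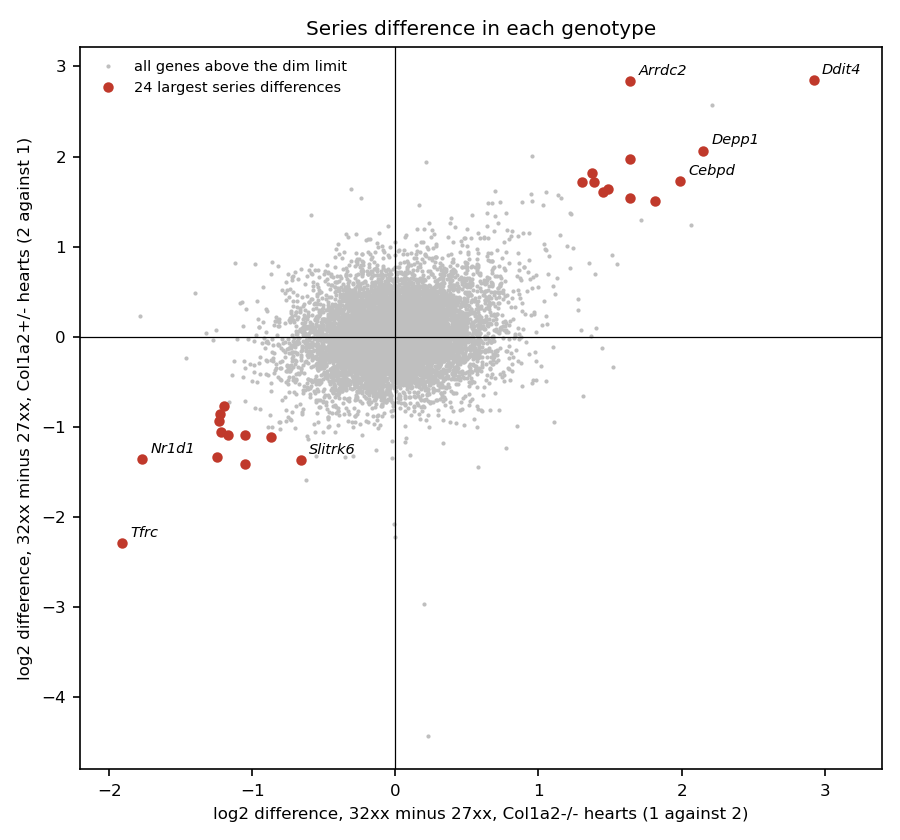
Series difference, 32xx minus 27xx, in *Col1a2-/-* hearts (x axis, log2 units, 1 heart against 2) and in *Col1a2+/-* hearts (y axis, log2 units, 2 hearts against 1) for 11486 genes above the dim limit (grey) and the 24 largest series differences (red). The red genes lie far from both axes because they were chosen on these values, and most grey genes form a round cloud with r of 0.23.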

How the data were processed

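Total RNA of 6 mouse hearts was measured on Clariom S Mouse arrays, 1 array per heart. The deposited table holds 1 log2 signal per probe set and heart, which the authors' array software had normalized. For that software the submission gives Affymetrix Expression Console and the methods give Transcriptome Analysis Console. The method of normalization is not given in the sources used here. The number of arrays limits the precision. Series and genotype were read from the sample labels. Nothing says what the number series mark, and p-values measure only the spread between these hearts. The members and the gene lists were chosen with earlier results of these data known.

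Of 28846 entries, 6640 control probe sets were left out. A symbol was given for 19572 of 22206 probe sets, for 19505 genes, each represented by its probe set with the highest mean. The series contrast, 32xx minus 27xx, was fitted with lmFit and eBayes of limma 3.58.1 in R 4.3.3 with genotype in the model, leaving 3 residual degrees of freedom. Adjusted p-values follow Benjamini-Hochberg and cover all 22206 probe sets. The dim limit was the 95th percentile of the mean signals of 1452 olfactory, vomeronasal and taste receptor probe sets. The genes named were the 12 largest differences in each direction above that limit that passed, separated the series within both genotypes and had a genotype term with p of at least 0.05 and a fold under 1.5; any that passed after adjustment; from each list up to 4 passing members, those of smallest p; and *Col1a2* and the clock, Y-linked and atrial genes. A few others were chosen after their values were seen. Of 1190 entries in 56 lists, 1069 were measured. Lists are described by counts and medians, without a set test. The fit was tested on simulated signals in which 200 probe sets had been changed. Promoters were matched by symbol, 16 of 18 core clock, 16 of 19 glucocorticoid-induced, 11 of 12 and 10 of 12 of the largest positive and negative genes having an entry. The alternatives tried were quantile normalization, centred medians, a filter on dim probe sets, another variance prior or none, array weights, no genotype term, 1 probe set per gene, atrial or Y-linked level as a covariate, each genotype alone and leaving out each heart. Figures were drawn with matplotlib 3.10.9.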

Additional observations from a re-analysis of the deposited data

Results flagged for a closer look

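In 4 named genes the series difference ran one way between *Col1a2-/-* hearts and the other way between *Col1a2+/-* hearts, with every heart of each genotype moving that way. The difference in *Col1a2-/-* hearts minus that in *Col1a2+/-* hearts was −0.40 for *Pam*, which encodes an enzyme of peptide amidation that is abundant in atrial muscle, 1.22 for the dehydrogenase gene *Dhrs9*, 1.19 for *Sry* and 0.51 for *Zfy1*, the last 2 being Y-linked. *Dhrs9* and *Zfy1* had means under the dim limit and *Sry*, at a mean of 6.01, lay beside it. *Sry* and *Zfy1* had log2 signals of 5.90 and 3.25 in heart 3294, within the 5.62 to 6.44 and 2.84 to 3.44 of the other hearts. Neither probe set followed *Uty*, which was low in that heart alone. The Y-linked genes *Kdm5d* (4.68 against 8.84 to 9.42) and *Eif2s3y* (4.09 against 10.95 to 11.87) were low in heart 3294 as *Uty* was. Why *Sry* and *Zfy1* differed from *Uty*, *Kdm5d* and *Eif2s3y* was not tested. The interaction of series and genotype in limma gave an adjusted p of 0.99982 for each of the 4, so none passed. *Pam* belongs to the atrial list, and its *Col1a2+/-* value holds heart 3294, at a log2 signal of 16.55, and heart 3201, at 15.90, against 15.86 in heart 2769. Between *Col1a2-/-* hearts its difference was only −0.03, with 16.18 in heart 3200 against 16.19 and 16.23 in hearts 2767 and 2770. No group held enough hearts for a test of outlying samples.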

How the results depend on the processing

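No probe set passed an adjusted p under 0.05 from limma in the fit reported above, while 3 did with dim probe sets left out (*Zfp36*, *Ddit4* and *Nfkbia*), 33 with a trend and robust prior, 2 with array weights, 3 without the genotype term and 2 with 1 probe set per gene (*Zfp36* and *Ddit4* in both fits with 2). With atrial level as a covariate the lowest adjusted p was 0.319, with Y-linked level 0.215, and with the variance not moderated 0.532. Leaving out 1 heart gave 0 calls in each case, with lowest adjusted p-values between 0.0719 and 1.00, the highest without *Col1a2+/-* heart 2769. The cause was not tested.

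The probe sets lower in 32xx hearts at an unadjusted p numbered 405 with dim ones left out, where fewer were tested. Without each heart in turn, 466 to 720 were higher and 517 to 765 lower. The clock genes of the PER arm that were higher numbered 4 with the variance not moderated, and 2 to 7 without each heart in turn. *Col1a2* had a series difference of 0.52 without the genotype term, the sign being turned because the series hold unequal numbers of each genotype. *Bhlhe41*, near 0, also turned, to −0.014 without the genotype term and −0.088 in *Col1a2-/-* hearts alone, and lay between −0.088 and 0.17 without each heart in turn. Over the named genes and all alternatives, 1944 values kept their direction and their side of the adjusted threshold, 31 passed it, 34 moved as values without a test and 6 turned. No paired analysis was possible because the hearts carry animal numbers and no replicate number shared between the series.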

Other observations

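Some genes that no list named also stood apart by series, and they were picked after their values were seen. *S1pr1*, which encodes the endothelial receptor of sphingosine 1-phosphate, had log2 signals of 11.76, 11.63 and 11.68 in 32xx hearts 3200, 3201 and 3294, against 10.22, 10.84 and 10.29 in 27xx hearts 2767, 2770 and 2769 (difference 1.29, SE 0.21, adjusted p = 0.284 from limma). *Mylip*, which encodes a ligase that targets the LDL receptor, had 11.13, 10.79 and 10.78 in 32xx hearts, against 10.20, 9.97 and 9.81 in 27xx hearts (difference 1.01). *Rasd1*, a dexamethasone-induced Ras gene, had 6.37, 6.47 and 7.29 in 32xx hearts, against 4.90, 4.89 and 4.96 in 27xx hearts (difference 1.69), with a mean under the dim limit.

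Other lists held single genes that passed. *Pfkfb3*, which encodes an activator of glycolysis, had 8.90, 8.72 and 9.16 in 32xx hearts, against 8.19, 8.46 and 8.17 in 27xx hearts (difference 0.67), and it and *Bnip3* (0.47) were the 2 of 25 hypoxia and glycolysis genes that were higher. That count was 1 higher without heart 3294 or 2770, and without heart 2769 it turned to 0 higher and 2 lower, with a median of −0.06 against 0.06 with all hearts. The chaperone gene *Hsph1* had 11.20, 11.04 and 11.12 in 32xx hearts, against 10.64, 10.71 and 10.53 in 27xx hearts (difference 0.54), the only member of 15 chaperone genes that passed, with 0 without heart 3200 or 2769 and 2 without heart 3294 or 2770. *Alas2*, which starts heme synthesis in red cells, was higher by 0.58, and none of the other 10 red cell markers passed, the count being 2 without heart 3200 or 3201 and 0 without heart 2769. Among 37 interferon-induced genes, *Rsad2* (0.41) was higher and *Isg15* (−0.42) lower, with 0 passing without heart 3201 or 2769 and no gene lower without heart 2767. The acute phase genes *Saa1* (−0.63), *Cfb* (−0.73) and *Ccl8* (−0.65) were lower among 27 measured, with means under the dim limit and 0 members higher. Without heart 3200 the list gave 2 higher and 0 lower, and the 3 named genes had unadjusted p-values of 0.0778, 0.0908 and 0.0503 from limma. It gave 1 higher and 3 lower without heart 3201 or 2770, 2 higher and 3 lower without heart 3294 and 1 higher and 4 lower without heart 2767.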
